A study of Mus musculus with 12 samples.

Results

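The comparison set spermatocytes of Zfp541 knockout mice collected 360 h after retinoic acid against spermatocytes of wild-type mice collected 260 h after retinoic acid, and so asked how far the arrested knockout cells lay from a normal earlier stage. The knockout cells were those that the authors' deposited cell table placed in a late pachytene class, and the wild-type cells were those it placed in an early pachytene class. They numbered 374 of the 929 kept cells of the series: 220 knockout cells (77, 66 and 77 in the 3 libraries) and 154 wild-type cells (25, 57 and 72). Every library came from testes of C57BL/6 mice that were fed WIN 18,446, a blocker of retinoic acid synthesis, for 7 days from 2 days after birth and were then injected with retinoic acid, so that spermatogenesis started in step, and this held for both genotypes and both times. The labels name a Zfp541 knockout without saying which part of the gene was removed or how many animals went into a library. Single cells were picked by mouth pipette and read with a modified Smart-seq2 method that captures the 3′ end of each cDNA. Whether the libraries of a group were separate animals is not stated, and a p-value here reflects how far these libraries scatter, for technical reasons or others. The late pachytene class of wild type at 360 h (83, 91 and 93 cells) is given beside the main comparison as a later landmark. The early pachytene class of the knockout at 260 h (59, 50 and 32 cells) entered the shared fit, and its levels are given for a few genes. Unless 260 h is named, knockout libraries below are those of 360 h.

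Pachytene is the long stage of meiotic prophase in which homologous chromosomes are fully paired, crossovers mature and the X and Y chromosomes are silenced in the sex body. Genes of early prophase (strand-break formation, strand invasion, synapsis) are then turned down, and a large set of genes for meiotic division, the sperm tail, the acrosome and sperm metabolism is turned on ahead of need. ZFP541 is a zinc finger protein of spermatocytes that works with KCTD19 and the histone deacetylases HDAC1 and HDAC2 in a chromatin complex.

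The groups were not equally deep or alike. Knockout class cells of 360 h gave 8640883, 8322773 and 9463189 UMIs (unique molecular identifiers, counts of single cDNA molecules), and wild-type class cells of 260 h gave 1783543, 4190716 and 10879840 UMIs. All knockout class cells fell in the authors' cluster 4. Wild-type cells of libraries 1 and 2 fell in cluster 2 apart from 1 cell, whereas all 72 cells of library 3 fell in cluster 3, so the deepest wild-type library stood apart from the other two. Cluster 3 had 1 marker of leptotene and zygotene (Rad51ap2) and 0 early pachytene markers among its 10 leading genes, and cluster 4 had 0 late pachytene markers among its 10. Cells are therefore named below by genotype and time. Leading genes of those clusters (Rad51ap2, Mdk, Elavl3, Mnd1, Sohlh2, Zfp820, Bend6 and Iqgap2 among those named) describe how the cells were sorted, and for them the value over all kept cells, which did not use the clusters, is the one to read. The summed level of 9 late pachytene markers was 5743, 4677 and 4530 CPM (counts per 1000000 of a library's scaled UMIs) in knockout libraries, against 3423, 3915 and 2727 CPM in wild-type libraries of 260 h. Most of that sum was Ldhc and Hspa2, and 3 of the 9 markers (Ccna1, Ovol2 and Pou5f2) were below 7 CPM in every knockout library. Zfp541 transcripts stood at 153, 139.7 and 157 CPM in knockout libraries and 66.0, 91.8 and 142 CPM in wild-type libraries of 260 h. Its 3′ reads therefore did not mark the genotype, and since the position of the deletion is not given they check nothing.

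Transcripts of other cell types were unequal among wild-type libraries. The sum of 7 macrophage and blood markers was 18.5, 2.49 and 183 CPM in knockout libraries and 509, 48.4 and 14.9 CPM in wild-type libraries of 260 h. The 5 Leydig cell markers summed to 21.9, 19.3 and 21.95 CPM in knockout libraries and 104, 57.9 and 22.8 CPM in wild-type libraries, with Insl3 at 0 in all 6. The 5 peritubular markers summed to 15.6, 21.2 and 115 CPM in knockout libraries and 162, 106 and 9.36 CPM in wild-type libraries. The 2 called genes of these somatic lists were Cyp11a1 and Lyz2, and their part in the other results was not tested. In summed libraries, a transcript carried by fewer cells and less of it per cell cannot be told apart.

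Arrested knockout cells differed from wild-type cells of 260 h at 20.2% of the genes tested. With edgeR's quasi-likelihood test at a Benjamini-Hochberg adjusted p under 0.05, 3775 of 18692 genes were called. Of these, 2123 were higher in knockout cells (11.4% of genes tested) and 1652 were lower (8.84%), and 1902 and 1463 of them changed at least 2-fold. The libraries of the groups did not overlap at 40.3% of genes. With all kept cells of each library summed, whatever their class, 3176 of 20279 genes passed (15.7%). They comprised 1800 higher (8.88%) and 1376 lower (6.79%) genes. Of the 3775 genes called by class, 2792 (74.0%) were also called in the same direction over all kept cells, and 0 were called in the opposite direction. The count rested partly on single libraries. It was 1969, 2286 and 2482 without knockout library 1, 2 or 3, and 1977 without wild-type library 3. Over all kept cells it was 1522, 2095 and 1857 without knockout library 1, 2 or 3, and 2108 and 1448 without wild-type library 2 or 3. Scaling to the spike-in RNAs gave 1864 calls, of which 67.1% were higher, against 56.2% higher in the main fit. The balance turned when library 3 alone stood for wild type at 260 h, an alternative added after seeing the data, where 1192 genes were higher and 1479 lower (44.6% higher).

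The same 4-group fit placed the arrested cells against the normal later stage. Knockout cells of 360 h differed from wild-type cells of 360 h at 4693 genes (25.1%), 1949 higher (10.4%) and 2744 lower (14.7%), and at 2895 and 2971 genes without knockout library 2 or 3. Wild-type cells of 360 h differed from wild-type cells of 260 h at 7097 genes (38.0%), 3915 higher (20.9%) and 3182 lower (17.0%). Spike-in scaling moved these splits: 16.8% of calls were higher in knockout than in wild type at 360 h, against 41.5% in the main fit, and 81.0% were higher in wild type at 360 h than at 260 h, against 55.2%. With it the median over all genes, on the log2 scale, was -0.54 for knockout against wild type at 360 h, 0.47 for wild type at 360 h against 260 h, and -0.04 in the main one. These comparisons share libraries with the main one, so their counts are given side by side and not as separate support. On the scale of the root mean square difference of log2 CPM over all genes tested, the 9 pairs of a knockout 360 h and a wild-type 260 h library lay 1.34 to 1.80 apart (median 1.56). The pairs of a knockout 360 h and a wild-type 360 h library lay 1.50 to 1.79 apart (median 1.69), and pairs of wild type at 360 h and 260 h lay 1.69 to 2.27 apart (median 2.00). Pairs within knockout 360 h lay 0.746 to 0.962 apart and pairs within wild type 260 h 1.08 to 1.44 apart. The distances of the knockout cells to either wild-type stage overlapped in range and exceeded those within its own group.

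**Figure D1:**
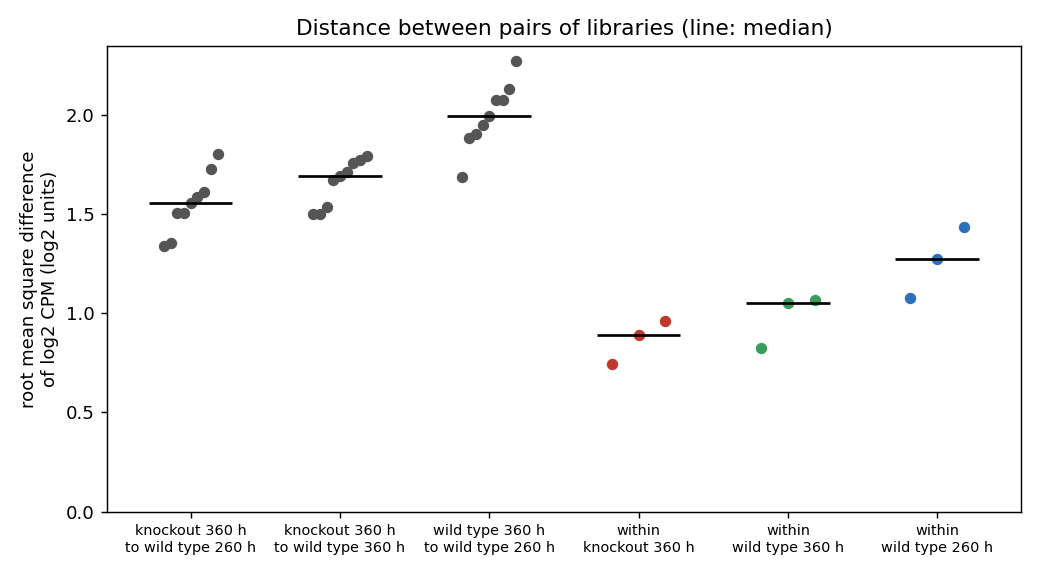
Root mean square difference of log2 CPM (log2 units, y axis) for each pair of libraries, by kind of pair (x axis), with points for pairs and lines for medians. The knockout 360 h libraries lay a median of 1.56 from wild type 260 h and 1.69 from wild type 360 h, and 0.888 from each other.

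Summed over class cells, the knockout libraries did not lie on the line between the wild-type stages. The classes were drawn from the expression of the same cells. The components and gene-by-gene counts below were not computed over all kept cells, so how far the choice of cells shaped this separation was not tested. The first principal component, with 46.9% of the variance, put knockout 360 h libraries at 41.6, 13.2 and 6.66, wild-type 360 h libraries at 143, 188 and 155, and wild-type 260 h libraries at -59.9, -53.7 and -93.3. The second, with 14.7%, put knockout 360 h libraries at -110.5, -92.6 and -95.6, and each of the other 9 libraries above 8. Counted gene by gene, all 3 knockout 360 h libraries lay above all 6 wild-type libraries at 1468 genes (7.85%), below all 6 at 1022 genes (5.47%), and strictly between the wild-type groups at 1591 genes (8.51%).

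**Figure D2:**
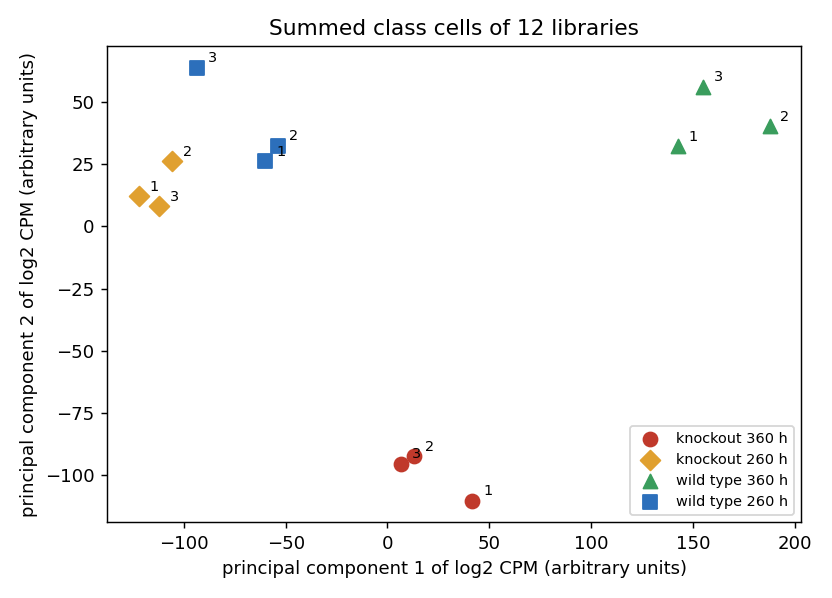
Principal components 1 and 2 (arbitrary units) of log2 CPM of the summed class cells of 12 libraries, labelled by replicate number. Knockout 360 h libraries sit between the wild-type stages on component 1 and stand apart from the other 9 libraries on component 2, near -110.5 to -92.6.

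Gene groups moved in different directions. Among all genes tested the median log2 fold change of knockout 360 h over wild type 260 h was -0.01. Members of a list are counted below against the shares of all genes, 11.4% higher and 8.84% lower, and the lists were chosen with earlier results of these data known.

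**Figure D3:**
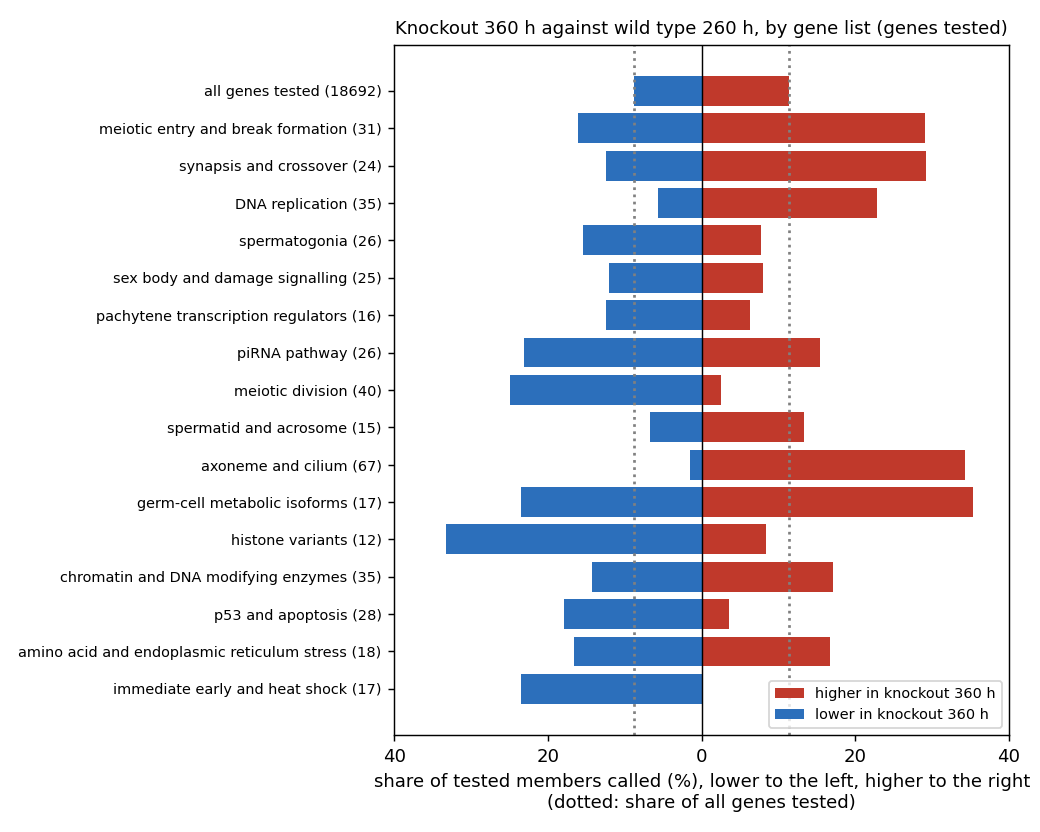
Share of tested list members (%, x axis) called higher (right) or lower (left) in knockout 360 h than in wild type 260 h, by gene list (y axis, genes tested in brackets), with dotted lines at 11.4% and 8.84% for all genes. Of 67 axoneme genes 23 were called higher and 1 lower, and of 40 division genes 1 was called higher and 10 lower.

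Part of the meiotic entry and break-formation programme was far above wild type of either time in the arrested cells. Of 31 tested members, 9 rose and 5 fell relative to wild type 260 h (median log2 fold change 0.41). At 11 of them (35.5%, beside 7.85% of all genes) the knockout libraries lay above all 6 wild-type libraries. Prdm9, the histone methyltransferase that sets recombination hotspots, had 53.6, 73.5 and 54.9 CPM in knockout libraries, against 3.76, 3.32 and 3.09 CPM in wild-type libraries of 260 h. Wild-type libraries of 360 h held 4.52, 3.28 and 2.95 CPM. The knockout libraries were all high and both wild-type groups low, with no overlap, and the log2 fold change over wild type 260 h was 4.18 ± 0.47 (edgeR, adjusted p = 3.51e-05). Zcwpw1, the reader of the mark that PRDM9 writes, had 326, 450.4 and 422 CPM in knockout libraries and 177, 59.0 and 42.2 CPM in wild-type libraries of 260 h, a log2 fold change of 2.13 ± 0.43 (edgeR, adjusted p = 0.003). It was lower still in wild type at 360 h, at 20.5, 23.1 and 33.5 CPM. Knockout libraries of 260 h held 300, 404 and 223 CPM of Zcwpw1, so its high level was not particular to the knockout at 360 h. They held 4.42, 15.9 and 13.6 CPM of Prdm9.

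The promoters of these 2 genes are shown as those of PRDM9 and its reader, which both rose. The windows run from 250 bases before to 50 bases after the start of the gene, 5′ to 3′ on the gene's strand, from RefSeq on GRCm38.p6. Capitals mark the E2F core GCGGGAA or its reverse complement, the MYB letters CAACTG or their reverse complement, and other motifs searched. Prdm9 lies on the minus strand at chr17:15564305-15564604 and Zcwpw1 on the plus strand at chr5:137787552-137787851.
Prdm9: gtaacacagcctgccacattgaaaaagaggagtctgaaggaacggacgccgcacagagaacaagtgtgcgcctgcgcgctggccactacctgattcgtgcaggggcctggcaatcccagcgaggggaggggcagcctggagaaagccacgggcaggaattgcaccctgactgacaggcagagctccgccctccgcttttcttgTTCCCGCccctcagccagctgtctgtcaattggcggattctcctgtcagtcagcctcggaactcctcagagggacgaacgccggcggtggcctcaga
Zcwpw1: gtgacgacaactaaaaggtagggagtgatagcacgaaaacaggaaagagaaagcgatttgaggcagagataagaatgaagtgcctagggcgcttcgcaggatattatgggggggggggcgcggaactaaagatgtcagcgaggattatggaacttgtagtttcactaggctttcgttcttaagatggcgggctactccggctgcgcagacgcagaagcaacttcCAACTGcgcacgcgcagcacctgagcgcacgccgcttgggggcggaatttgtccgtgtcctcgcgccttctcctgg
The Prdm9 window holds 1 E2F core and the Zcwpw1 window 1 MYB match. Over the 10525 tested genes with a promoter window within 500 bases of the annotated start, 8.50% held the E2F core, against 7 of 19 windows of this list. Among genes called higher 7.50% held it, and among genes called lower 10.7% did. A match describes the letters in the window and is not a binding site.

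Mei1 and Gm4969 followed the pattern of Prdm9, whereas Stra8 and Spo11 were not called. In the list as a whole 17 of 31 members were not called. Mei1, needed for strand-break formation in mouse, had 62.4, 54.7 and 59.7 CPM in knockout libraries and 6.44, 3.11 and 1.15 CPM in wild-type libraries of 260 h (log2 fold change 4.26 ± 0.59, edgeR adjusted p = 1.71e-04). Gm4969, the gene of the meiotic entry factor MEIOSIN, had 47.3, 59.8 and 31.6 CPM in knockout libraries and 0, 1.04 and 0.795 CPM in wild-type libraries of 260 h (log2 fold change 5.92 ± 0.75, edgeR adjusted p = 8.52e-05). Its 3′ end faces that of Six5, which was also called higher, and since counting by strand is not stated its value is uncertain. Every knockout library of 360 h stood at 31.6 CPM or more for both genes, and every wild-type library of 260 h at 6.44 CPM or less. Knockout libraries of 260 h held 17.4, 7.62 and 15.3 CPM of Mei1 and 33.05, 62.8 and 14.3 CPM of Gm4969. Stra8, the partner of MEIOSIN at meiotic entry, stood at 6.07, 75.0 and 83.2 CPM in knockout libraries and 9.13, 33.6 and 4.33 CPM in wild-type libraries of 260 h, and did not pass (adjusted p = 0.166, edgeR). Knockout library 1 was as low as wild type. Spo11, the catalytic subunit of the break-forming enzyme, stood at 106, 135 and 124 CPM in knockout libraries and 53.2, 113 and 107 CPM in wild-type libraries, also without a call (log2 fold change 0.41 ± 0.28, edgeR adjusted p = 0.321). The cohesin gene Smc1b and the glycolipid enzyme gene Ugt8a, chosen after their values were seen, rose by 1.21 and 3.01 on the log2 scale.

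Of the 5 members that fell, several act in strand invasion, which was not a list of its own. Mnd1, which helps the recombinases invade the homologous duplex, had 8.17, 11.9 and 8.92 CPM in knockout libraries, against 157, 42.8 and 113 CPM in wild-type libraries of 260 h (log2 fold change -3.42 ± 0.49, edgeR adjusted p = 2.47e-04; -2.79 over all kept cells, adjusted p = 8.42e-04). Dmc1, the meiosis-specific recombinase, chosen after its values were seen, averaged 11.1 ± 5.77 CPM in knockout libraries and 94.1 ± 51.1 CPM in wild-type libraries (SD, n = 3 each), with a log2 fold change of -3.09 ± 0.54 (edgeR, adjusted p = 0.0013). Rad51ap2 had 0.248, 2.02 and 0.513 CPM in knockout libraries and 36.0, 27.0 and 171 CPM in wild-type libraries, a log2 fold change of -6.40 ± 0.99 (edgeR, adjusted p = 9.38e-04) and -5.22 over all kept cells (adjusted p = 0.00936). The knockout libraries were low throughout and wild-type library 3 was the highest for Rad51ap2. Wild-type libraries of 360 h were low as well, at 4.18, 4.28 and 8.88 CPM of Mnd1 and 6.79, 2.37 and 1.92 CPM of Dmc1. For Rad51ap2 they held 4.44, 0.821 and 1.15 CPM. Knockout and wild type at 360 h were not called apart for Mnd1 or Rad51ap2 (edgeR, adjusted p = 0.281 and 0.405). Knockout libraries of 260 h held 265, 359 and 132 CPM of Mnd1. Hormad2 and Meiob were the other members that fell.

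**Figure D4:**
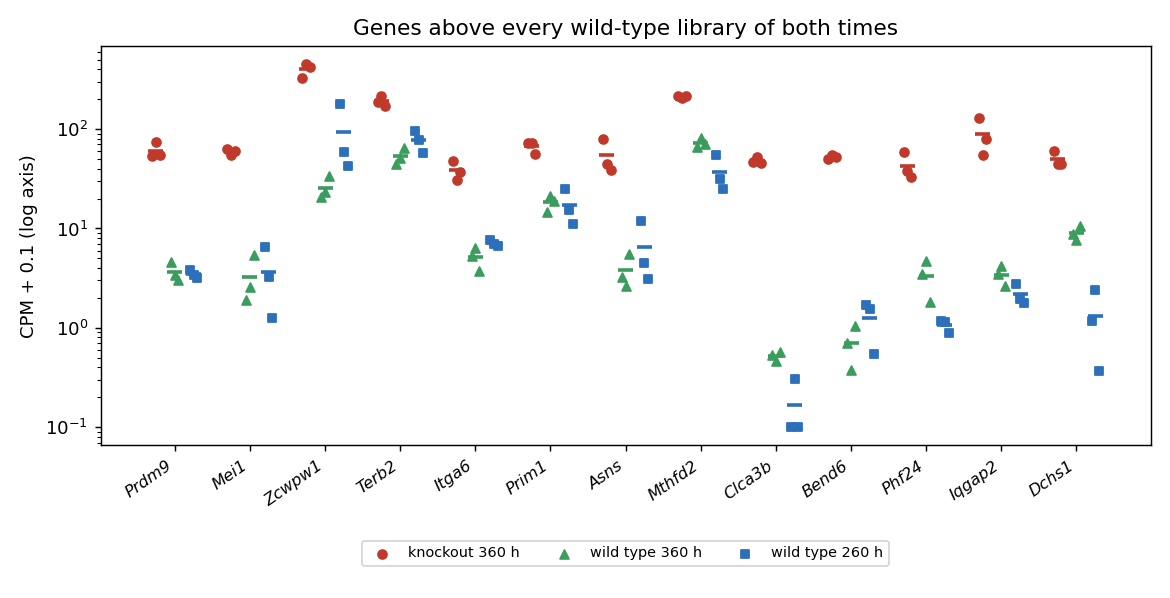
CPM + 0.1 (log y axis) of 13 genes whose 3 knockout 360 h libraries lay above all 6 wild-type libraries, with points for libraries and bars for means. Prdm9 stood near 60.7 CPM in knockout 360 h, 3.58 CPM in wild type 360 h and 3.39 CPM in wild type 260 h.

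Synapsis and crossover genes were divided. Of 24 tested members 7 rose and 3 fell, with a median log2 fold change of 0.00. Another count, of members above all 6 wild-type libraries, was also 7 (29.2%, beside 7.85% of all genes). The number called higher was 4 without knockout library 1, 2 or 3 or wild-type library 2, and 2 with spike-in scaling. The number called lower was 1 without wild-type library 3 and 1 with spike-in scaling. Terb1 and Terb2, which tie telomeres to the nuclear envelope, rose by 2.09 ± 0.28 and 1.33 ± 0.28 on the log2 scale (edgeR, adjusted p = 1.28e-04 and 0.00313). Terb1 had 207, 167 and 173 CPM in knockout libraries and 53.7, 41.1 and 34.8 CPM in wild-type libraries of 260 h, with no overlap. Sycp1, the transverse filament of the synaptonemal complex, fell to 564, 966 and 874 CPM in knockout libraries, against 2330.0, 2070.1 and 1596 CPM in wild-type libraries of 260 h (log2 fold change -1.32 ± 0.26, edgeR adjusted p = 0.00217). Wild-type libraries of 360 h were lower still, at 261, 352 and 407 CPM. Sycp3, of the lateral element, had 577, 539.6 and 475 CPM in knockout libraries and 1419, 444 and 425 CPM in wild-type libraries of 260 h, where library 1 alone was high. It was not called (adjusted p = 0.46, edgeR), and its log2 fold change was -0.52 with all libraries and 0.29 without wild-type library 1. Syce1, a central element protein, rose by 1.33 ± 0.30 on the log2 scale (edgeR, adjusted p = 0.00572) to 1164, 975 and 872 CPM in knockout libraries, against 535, 377 and 291 CPM in wild-type libraries of 260 h.

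Of 26 tested spermatogonial genes 4 fell and 2 rose, with a median log2 fold change of -0.73 and 20 not called. The higher count was 1 without any 1 of the wild-type libraries or without knockout library 1 or 2. Over all kept cells, which include 19 pre-meiotic knockout cells and 52 pre-meiotic wild-type cells, 8 fell and 1 rose. Dazl, an RNA-binding protein required in germ cells from before meiosis, had 216, 355 and 378 CPM in knockout libraries, against 1491, 969.9 and 1286 CPM in wild-type libraries of 260 h. The groups did not overlap, and the log2 fold change was -1.98 ± 0.28 (edgeR, adjusted p = 1.88e-04). Wild-type libraries of 360 h held 143, 89.9 and 120.2 CPM, below the knockout libraries (log2 fold change of knockout over wild type at 360 h 1.43, edgeR adjusted p = 0.00106). Sohlh2, a transcription factor of differentiating spermatogonia, had a log2 fold change of -3.63 ± 0.79 in class cells (edgeR, adjusted p = 0.00776) and changed by -2.89 over all kept cells (adjusted p = 0.0284). Nanos3, an RNA-binding protein of early germ cells, fell to 0.867, 1.90 and 1.74 CPM in knockout libraries, against 16.1, 9.13 and 5.56 CPM in wild-type libraries of 260 h. Itga6, a laminin receptor subunit, rose to 47.6, 30.6 and 36.8 CPM in knockout libraries, against 7.52, 6.85 and 6.62 CPM in wild-type libraries of 260 h and 5.13, 6.29 and 3.67 CPM in those of 360 h.

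DNA replication genes gave 8 higher and 2 lower of 35, though their median log2 fold change was -0.11. The higher count was 6 without wild-type library 3 and 4 over all kept cells, and the lower count was 1 without wild-type library 1 or 3 or any 1 of the knockout libraries. Chaf1b, of the histone chaperone CAF-1, had 66.4, 57.2 and 60.2 CPM in knockout libraries, against 9.67, 12.7 and 6.89 CPM in wild-type libraries of 260 h (log2 fold change 2.66 ± 0.32, edgeR adjusted p = 5.25e-05). Pola2 and Prim1, subunits of the polymerase-primase that starts new strands, rose by 2.57 ± 0.37 and 2.02 ± 0.35 on the log2 scale (edgeR, adjusted p = 2.42e-04 and 8.54e-04). In knockout libraries of 260 h the means were 4.56 CPM for Chaf1b, 32.9 CPM for Pola2 and 10.4 CPM for Prim1. A folate enzyme and an amino acid enzyme also rose. Mthfd2, of the mitochondrial folate cycle, had 214, 206 and 214 CPM in knockout libraries and 54.8, 31.1 and 24.6 CPM in wild-type libraries of 260 h (log2 fold change 2.55 ± 0.29, edgeR adjusted p = 3.51e-05). Asns, asparagine synthetase, averaged 54.2 ± 21.7 CPM in knockout libraries and 6.39 ± 4.74 CPM in wild-type libraries of 260 h (SD, n = 3 each), with no overlap (log2 fold change 3.25 ± 0.50, edgeR adjusted p = 3.60e-04). Mthfd2 already stood at 139, 146 and 116 CPM in knockout libraries of 260 h, and Asns at 95.8, 56.4 and 68.8 CPM. Their list of amino acid and endoplasmic reticulum stress genes had 3 higher (with Ddit3, a stress-induced transcription factor) and 3 lower of 18, and Slc7a5, an amino acid transporter, was among the lower, with a log2 fold change of -1.47 ± 0.34. The lower count was 1 without wild-type library 2 or 3 or knockout library 1 or 2.

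Sperm-tail genes were called higher more often than lower. Of 67 tested axoneme and cilium members 23 rose, by 0.81 to 7.75 on the log2 scale, and 1 (Cfap126) fell, and the median log2 fold change was 0.80. The higher count was 28 over all kept cells, 10 without knockout library 1 and 14 without wild-type library 3. Against wild type 360 h, 42 of the 67 were lower in knockout cells and 1 was higher, beside 14.7% lower and 10.4% higher of all genes. Of the 23 that rose over wild type 260 h, 15 were called lower than wild type 360 h, 1 higher and 7 neither. At 26 of the 67 genes the knockout libraries lay strictly between the 2 wild-type groups, a share of 38.8% beside 8.51% of all genes. Drc1, a scaffold of the dynein regulatory complex, had 267, 194 and 139 CPM in knockout libraries, against 34.9, 49.0 and 19.5 CPM in wild-type libraries of 260 h (log2 fold change 2.54 ± 0.38, edgeR adjusted p = 3.12e-04). Dnah12, an inner-arm dynein heavy chain, had 114, 96.8 and 135 CPM in knockout libraries, against 33.3, 24.5 and 15.8 CPM in wild-type libraries of 260 h (log2 fold change 2.26 ± 0.36, edgeR adjusted p = 5.37e-04). Wild-type libraries of 360 h held 405, 664 and 384 CPM of it. The knockout libraries thus lay above the whole of the earlier group and below the whole of the later group for Dnah12, while for Drc1 knockout library 1 came close to wild type 360 h, at 283, 386 and 270.4 CPM. Hydin, of the central pair, rose by 1.37 ± 0.24 on the log2 scale (edgeR, adjusted p = 9.84e-04). Dnaic2, an outer-arm dynein intermediate chain, was the exception above both groups, with 90.7, 48.9 and 63.8 CPM in knockout libraries, 15.1, 42.1 and 15.4 CPM in wild-type libraries of 360 h and 1.07, 0.208 and 0.177 CPM in those of 260 h (log2 fold change over wild type 260 h 7.75 ± 0.67, edgeR adjusted p = 4.41e-06). Over all kept cells its log2 fold change was 4.66 (adjusted p = 0.0146).

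The Drc1 promoter is shown as the window of the axoneme gene with the smallest p after Dnaic2. Capitals mark GTTGCCA, the letters of an X-box half-site read by RFX factors, or their reverse complement. The window lies on the plus strand at chr5:30281143-30281442 (GRCm38.p6, RefSeq).
Drc1: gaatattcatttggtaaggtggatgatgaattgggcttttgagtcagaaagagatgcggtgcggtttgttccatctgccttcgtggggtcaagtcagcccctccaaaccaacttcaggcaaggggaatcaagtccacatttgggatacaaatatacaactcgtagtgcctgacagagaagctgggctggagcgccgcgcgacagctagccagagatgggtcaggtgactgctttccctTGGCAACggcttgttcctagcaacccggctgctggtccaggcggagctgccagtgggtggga
Of 47 axoneme genes with a window, 9 held the X-box half-site, beside 4.44% of all windows, and 11 held CAACTG, beside 10.9%. Among all genes called higher these shares were 5.22% and 11.7%.

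Acrosome and metabolic genes showed both outcomes. Only 15 of 32 spermatid and acrosome members passed the filter on low counts, of which 2 rose and 1 fell. Zpbp2, an acrosomal zona-binding protein, had 344, 259 and 257 CPM in knockout libraries, against 65.0, 46.3 and 43.1 CPM in wild-type libraries of 260 h (log2 fold change 2.49 ± 0.31, edgeR adjusted p = 7.63e-05). Catsperd, a subunit of the sperm calcium channel, had 324, 214 and 241 CPM in knockout libraries, against 61.2, 35.1 and 22.1 CPM in wild-type libraries of 260 h (log2 fold change 2.75 ± 0.35, edgeR adjusted p = 8.52e-05). Neither group overlapped the other for these genes. Spaca1, of the inner acrosomal membrane, fell to 0.248, 1.78 and 0.821 CPM in knockout libraries, against 6.98, 16.0 and 35.5 CPM in wild-type libraries, and the call (adjusted p = 0.0498, edgeR) was lost when any library was left out. Of 17 tested germ-cell metabolic genes 6 rose and 4 fell, and 3 rose without wild-type library 3. The lower count was 2 without wild-type library 2 or 3 or any 1 of the knockout libraries. Pgam2, a phosphoglycerate mutase, rose by 2.41 ± 0.44 on the log2 scale (edgeR, adjusted p = 0.00146), and Slc16a7, a monocarboxylate transporter, by 2.27 ± 0.38 (adjusted p = 7.92e-04).

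Other late genes did not follow. Prps1l1, a testis form of phosphoribosyl pyrophosphate synthetase, had 7.93, 23.0 and 16.1 CPM in knockout libraries, against 76.3, 104 and 60.9 CPM in wild-type libraries of 260 h (log2 fold change -2.35 ± 0.47, edgeR adjusted p = 0.00282). Hk1, hexokinase 1, had 2.72, 2.37 and 4.00 CPM in knockout libraries, against 6.98, 15.6 and 8.04 CPM in wild-type libraries of 260 h (log2 fold change -1.76 ± 0.37, edgeR adjusted p = 0.00342). Both were far higher in wild type at 360 h, Prps1l1 at 800.5, 1023 and 558 CPM and Hk1 at 95.9, 159 and 129 CPM, so both fell below the earlier wild-type stage while wild type went up with time. Tekt3, a tektin of the sperm tail, had 1.24, 1.30 and 0.615 CPM in knockout libraries and 5.37, 1.45 and 1.24 CPM in wild-type libraries of 260 h, without a call (log2 fold change -0.99 ± 0.67, edgeR adjusted p = 0.321). Ovol2, a zinc finger repressor of pachytene, had 2.23, 0.830 and 0.410 CPM in knockout libraries and 3.22, 0.830 and 4.06 CPM in wild-type libraries of 260 h, without a call (log2 fold change -1.28 ± 0.69, edgeR adjusted p = 0.215). Ccna1, the cyclin needed for the first meiotic division in males, had 3.84, 6.52 and 4.62 CPM in knockout libraries and 2.15, 2.28 and 2.47 CPM in wild-type libraries of 260 h (log2 fold change 1.09 ± 0.41, edgeR adjusted p = 0.0703). Against wild type 360 h the knockout log2 differences were -7.79 for Tekt3, -6.42 for Ovol2 and -3.78 for Ccna1 (edgeR, adjusted p = 7.49e-07, 1.21e-05 and 4.73e-06). Pgk2, the retrogene of phosphoglycerate kinase, had 22.9, 18.1 and 17.7 CPM in knockout libraries, against 3.22, 13.3 and 5.74 CPM in wild-type libraries of 260 h. It passed with all libraries (log2 fold change 1.34 ± 0.40, edgeR adjusted p = 0.0252) but not over all kept cells (adjusted p = 0.205), nor without knockout library 1 or 2 or wild-type library 1 or 3 (adjusted p 0.0563 to 0.132). Wild-type libraries of 360 h held 226, 328 and 153 CPM.

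**Figure D5:**
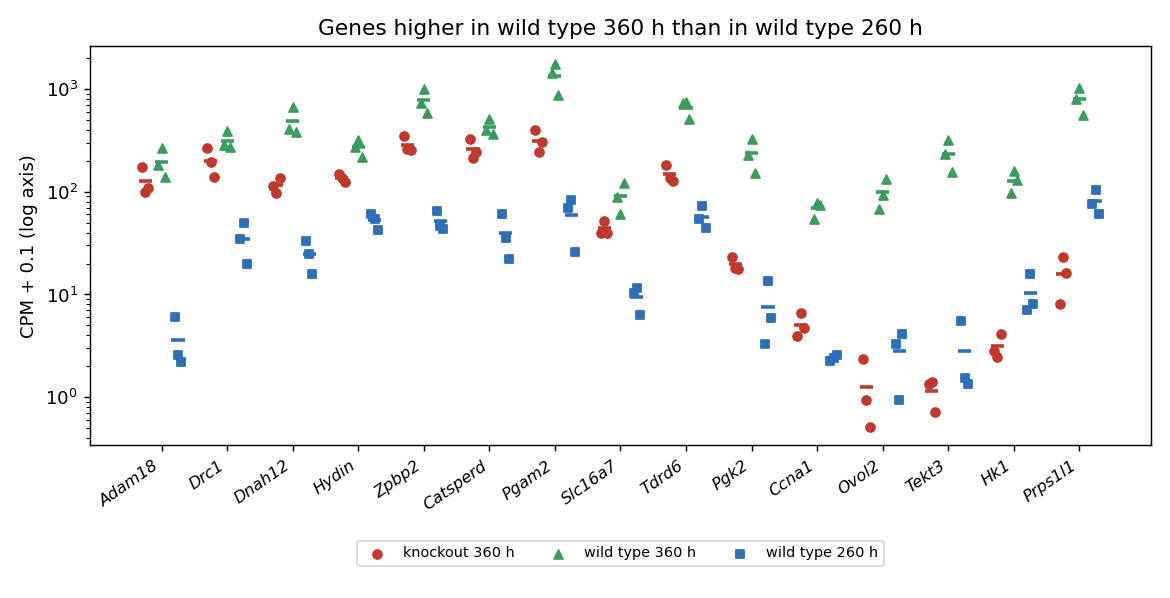
CPM + 0.1 (log y axis) of 15 genes called higher in wild type 360 h than in wild type 260 h, with points for libraries and bars for means. Knockout 360 h lies between the wild-type groups for Dnah12, Hydin and Zpbp2, and at or below wild type 260 h for Ovol2, Tekt3, Hk1 and Prps1l1.

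Of 40 tested meiotic division genes 10 fell and 1 rose relative to wild type 260 h, while 29 were not called, with a median log2 fold change of -0.42. At 7 of the 40 (17.5%, beside 5.47% of all genes) the knockout libraries lay below all 6 wild-type libraries. The lower count was 6 over all kept cells, 4 without knockout library 1, 6 without knockout library 2, 5 without wild-type library 3 and 2 with spike-in scaling. Cdk1, the kinase that drives entry into division, had 29.5, 45.5 and 48.5 CPM in knockout libraries, against 210.0, 138 and 257 CPM in wild-type libraries of 260 h (log2 fold change -2.29 ± 0.32, edgeR adjusted p = 1.95e-04). Wild-type libraries of 360 h held 79.4, 107 and 77.8 CPM, above the knockout libraries as well. Wee1, which holds CDK1 inactive, fell, with a log2 fold change of -2.29 ± 0.38 (edgeR, adjusted p = 6.29e-04), as did Incenp, of the chromosomal passenger complex, at -1.29 ± 0.28 (adjusted p = 0.00379). Sgo1, a protector of centromeric cohesion, was the member that rose, with 74.4, 75.6 and 68.7 CPM in knockout libraries, against 25.2, 19.7 and 29.4 CPM in wild-type libraries of 260 h (log2 fold change 1.55 ± 0.28, edgeR adjusted p = 0.00118). Over all kept cells its adjusted p was 0.125 (edgeR). Knockout libraries of 260 h held 69.3, 57.8 and 63.3 CPM of Sgo1, and 169, 159 and 88.0 CPM of Cdk1.

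Transcription regulators of pachytene gave 1 higher and 2 lower of 16. The lower count was 1 without wild-type library 3 and 3 without wild-type library 1. Mybl1, which encodes the A-MYB activator of pachytene genes and piRNA precursors, had 98.1, 96.6 and 98.4 CPM in knockout libraries, against 168, 171 and 257 CPM in wild-type libraries of 260 h (log2 fold change -1.03 ± 0.24, edgeR adjusted p = 0.00744). It did not pass over all kept cells (adjusted p = 0.0914) or without wild-type library 3 (adjusted p = 0.0593). Sox30, a factor of late meiotic and spermatid genes, fell, with a log2 fold change of -1.74 ± 0.29 (edgeR, adjusted p = 7.71e-04). Ovol1, a zinc finger factor, rose to 12.4, 7.35 and 7.39 CPM in knockout libraries, against 1.61, 0.830 and 1.06 CPM in wild-type libraries of 260 h (log2 fold change 3.03 ± 0.55, edgeR adjusted p = 0.00137), and stood at 11.1, 13.5 and 9.05 CPM in wild type at 360 h. Against that later stage the log2 difference was -0.31 (adjusted p = 0.67), in contrast to Ovol2 above.

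Of the 7 genes of the ZFP541 complex list only Hdac2 was called by class. It had 26.3, 32.3 and 40.5 CPM in knockout libraries, against 101, 119.6 and 215 CPM in wild-type libraries of 260 h (log2 fold change -2.14 ± 0.34, edgeR adjusted p = 5.16e-04), and 41.4, 26.1 and 52.7 CPM in wild type at 360 h, where the knockout was not called (adjusted p = 0.576). Hdac1 had 319, 211 and 177 CPM in knockout libraries and 128, 228 and 286 CPM in wild-type libraries of 260 h, with the groups overlapping. Kctd19 had 279, 315 and 270.4 CPM in knockout libraries and 277, 163 and 159 CPM in wild-type libraries of 260 h. Neither was called by class (adjusted p = 0.818 and 0.209, edgeR), though Kctd19 passed over all kept cells (log2 fold change 0.89, adjusted p = 0.0347). Chromatin enzymes gave 6 higher and 5 lower of 35. The higher count was 2 or 3 without any 1 of wild-type libraries 2 and 3 and knockout libraries 1 and 2, and the lower count 2 or 3 without wild-type library 3 or any 1 of the knockout libraries. Hdac3, another deacetylase, had 11.1, 21.1 and 19.2 CPM in knockout libraries, against 108, 122 and 187 CPM in wild-type libraries of 260 h (log2 fold change -3.02 ± 0.35, edgeR adjusted p = 3.89e-05). Kdm4d, a testis-enriched histone demethylase, rose by 1.59 ± 0.30 on the log2 scale (edgeR, adjusted p = 0.00149).

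Among 12 tested histone variant genes 4 fell and 1 rose, with a median log2 fold change of -1.72. The higher count was 0 without wild-type library 1 or 2 or any 1 of the knockout libraries. Between wild type at 360 h and at 260 h, 7 of the 12 fell and 0 rose (median -1.48), beside 17.0% lower of all genes. Against wild type 360 h, 3 were higher and 0 lower in knockout cells, beside 10.4% higher of all genes. H2afx, whose protein is phosphorylated at breaks and over the sex body, had 47.1, 46.9 and 39.3 CPM in knockout libraries, against 123, 283 and 675 CPM in wild-type libraries of 260 h (log2 fold change -3.03 ± 0.54, edgeR adjusted p = 0.00162). H1f0, a linker histone, fell, with a log2 fold change of -1.94 ± 0.36, as did Hist1h2ba, the testis H2B gene, at -2.86 ± 0.68 (edgeR, adjusted p = 0.00157 and 0.00957). Hist1h2ba lost the call without knockout library 1 (adjusted p = 0.0638). In the sex body and damage signalling list 2 members rose and 3 fell of 25. The higher count was 4 without wild-type library 1 and 1 without any 1 of the other 5 libraries, and the lower count was 1 without wild-type library 3 or knockout library 1. Atm, the kinase that answers strand breaks, rose to 66.6, 107 and 80.2 CPM in knockout libraries, against 44.6, 20.6 and 17.5 CPM in wild-type libraries of 260 h (log2 fold change 1.66 ± 0.36, edgeR adjusted p = 0.00437), but not over all kept cells (adjusted p = 0.38). Trim28, a corepressor, fell, with a log2 fold change of -1.08 ± 0.27 (edgeR, adjusted p = 0.0101), and lost the call without knockout library 1 or 3 or wild-type library 3.

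X-linked genes, which the sex body silences, gave few calls between arrested cells and wild type 260 h. Of 465 tested X-linked genes 4 rose and 11 fell, a called share of 3.23% beside 20.2% of all genes, with a median log2 fold change of -0.60. Between wild type at 360 h and at 260 h, 143 of the 465 fell and 4 rose, beside 17.0% lower and 20.9% higher of all genes. X-linked genes took 0.195%, 0.333% and 0.365% of class-cell UMIs in knockout libraries, against 0.582%, 0.372% and 0.359% in wild-type libraries of 260 h. The groups overlapped, and an exact permutation test of 3 against 3 libraries gave p = 0.2, where the smallest p it can give is 0.1. X-linked UMIs were 0.179%, 0.135% and 0.208% in wild type at 360 h, with only knockout library 1 in that range. With so few UMIs on these genes, their called share and that of all genes are not a like comparison. Over all kept cells, which include more pre-meiotic wild-type than knockout cells, 0 of the 465 rose and 26 fell. The mean X-linked share there was 0.425% in knockout and 0.871% in wild-type libraries of 260 h (exact permutation test, p = 0.1, adjusted p = 0.6).

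piRNA pathway genes were divided, with 4 higher and 6 lower of 26. The higher count was 1 without wild-type library 3 and 2 without knockout library 1 or 2, and the lower count was 3 without wild-type library 3 or knockout library 1 or 3. Tdrd6, a tudor protein of the chromatoid body, had 179.8, 137 and 127 CPM in knockout libraries, against 54.2, 72.0 and 44.2 CPM in wild-type libraries of 260 h (log2 fold change 1.38 ± 0.26, edgeR adjusted p = 0.00155), and 729, 744 and 504 CPM in wild type at 360 h. Piwil2, which encodes a PIWI protein, fell, with a log2 fold change of -1.14 ± 0.22, as did Tex19.1, which restrains retrotransposons, at -1.99 ± 0.40 (edgeR, adjusted p = 0.00169 and 0.00234). Piwil1, which encodes a PIWI protein of pachytene, had 751, 692 and 724 CPM in knockout libraries and 441, 929 and 733 CPM in wild-type libraries of 260 h, with a log2 fold change of 0.04 ± 0.29 and no call (edgeR, adjusted p = 0.939). Hspa2, the chaperone of pachytene cells, likewise stood at 1185, 1104 and 1208 CPM in knockout libraries and 999.9, 1562 and 1282 CPM in wild-type libraries (log2 fold change -0.14 ± 0.22, edgeR adjusted p = 0.714).

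The largest rises in class cells, among genes also called over all kept cells, were in genes nearly silent in wild type 260 h. Genes were ranked by fold change among those averaging at least 20 CPM over the 6 libraries compared, without overlap between groups. That ranking favours genes low in 1 group, so the near silence follows from the choice. Clca3b, of a chloride channel regulator family, had 46.7, 52.1 and 45.3 CPM in knockout libraries and 0.435, 0.365 and 0.470 CPM in wild-type libraries of 360 h, and 1258 UMIs in the 3 knockout libraries against 1 UMI in the 3 wild-type libraries of 260 h. The pooled ratio was 863, with an exact 95% interval of 155 to 34095 that covers counting error only. Kbtbd11, of the BTB-Kelch family, had 1223 UMIs in knockout libraries against 1 in wild-type libraries (ratio 839, 150.2 to 33147), and Kbtbd8os, which overlaps Kbtbd8 on the other strand and is uncertain for that reason, had 1247 against 1 (ratio 855.0, 153 to 33797). Over all kept cells the log2 fold changes were 8.73 for Clca3b, 5.08 for Kbtbd11 and 8.20 for Kbtbd8os (edgeR, adjusted p = 6.67e-05, 0.00373 and 1.52e-04), beside 9.38, 9.26 and 9.39 in class cells. With so few wild-type UMIs these fitted values depend on the prior count. Iqgap2, a scaffold of the actin skeleton, had 130.3, 55.2 and 79.1 CPM in knockout libraries, against 2.69, 1.87 and 1.68 CPM in wild-type libraries of 260 h, and over all kept cells rose by 4.99 on the log2 scale (edgeR, adjusted p = 2.89e-05). Bend6, of the BEN domain family, rose by 5.19 over all kept cells (edgeR, adjusted p = 6.67e-05), Phf24 by 5.51 ± 0.57 in class cells and Dchs1, a giant cadherin, by 5.49 ± 0.67 (edgeR, adjusted p = 1.80e-05 and 6.67e-05). Some of these genes were also above wild type 260 h in wild type at 360 h. Kbtbd11 had 4.79, 26.5 and 15.9 CPM there (log2 fold change over wild type 260 h 7.73, edgeR adjusted p = 2.49e-05), Kbtbd8os had 6.79, 11.7 and 8.28 CPM (6.95, adjusted p = 5.61e-05) and Dchs1 had 8.70, 7.48 and 10.5 CPM (3.01, adjusted p = 0.0016). Adam18, a sperm-surface disintegrin, had 175, 99.9 and 109 CPM in knockout libraries, 183, 266 and 139 CPM in wild-type libraries of 360 h and 5.91, 2.49 and 2.12 CPM in wild-type libraries of 260 h. Efcab9, a partner of the sperm calcium channel, rose by 6.11 ± 1.66 on the log2 scale (edgeR, adjusted p = 0.0284), and its call was lost without any 1 of the 6 libraries.

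The largest falls, chosen by the same ranking, were in genes that wild-type cells of 260 h expressed. Arrested cells held them at a few CPM or little more, which follows from that choice. Tmem59l, a membrane protein, had 0.991, 1.90 and 2.67 CPM in knockout libraries, against 47.3, 85.5 and 113 CPM in wild-type libraries of 260 h (log2 fold change -5.45 ± 0.54, edgeR adjusted p = 1.49e-05). Aplp1, an amyloid precursor-like protein, had 2.11, 2.25 and 2.36 CPM in knockout libraries, against 37.1, 37.0 and 74.4 CPM in wild-type libraries of 260 h (log2 fold change -4.47 ± 0.39, edgeR adjusted p = 4.41e-06). Slc8a2, a sodium-calcium exchanger, had a log2 fold change of -4.66 ± 0.65 and Syngr2, a synaptogyrin, of -4.69 ± 0.66 (edgeR, adjusted p = 2.06e-04 and 2.22e-04). Tmem59l, Aplp1 and Slc8a2 were below all 6 wild-type libraries, those of 360 h included, whereas Syngr2 was as low in wild type at 360 h (2.18, 1.09 and 0.939 CPM). Mdk, the growth factor midkine, and Elavl3, an RNA-binding protein, changed by -4.94 and -5.37 over all kept cells (edgeR, adjusted p = 0.00291 and 0.00222). Tsen34, a subunit of the tRNA splicing endonuclease, had a log2 fold change of -4.40 ± 0.49 and Arhgef25, a guanine nucleotide exchange factor, of -4.49 ± 0.63 (edgeR, adjusted p = 3.40e-05 and 2.13e-04). Zfp820, a zinc finger gene, had 11.1, 5.46 and 11.2 CPM in knockout libraries, against 300.2, 193 and 210.3 CPM in wild-type libraries of 260 h, and changed by -4.18 over all kept cells (edgeR, adjusted p = 6.67e-05). It was also low in wild type at 360 h (11.3, 6.93 and 3.88 CPM) and in knockout libraries of 260 h (10.6, 8.23 and 15.6 CPM). Mdk, Arhgef25 and Tsen34 were likewise low in wild type at 360 h, with means of 1.54, 1.65 and 3.68 CPM. Elavl3 was below all 6 wild-type libraries, with a mean of 3.14 CPM in wild type at 360 h.

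The p53 and apoptosis list and the immediate early and heat shock list held few rises, beside 11.4% higher and 8.84% lower of all genes. The list of amino acid and endoplasmic reticulum stress genes above, with 3 of 18 higher, did not share this. Of 28 tested p53 and apoptosis genes 1 rose and 5 fell, with a median log2 fold change of -0.64, and the lower count was 1 or 2 without any of the libraries other than wild-type library 1, for which it was 4. Pmaip1, which encodes the death promoter NOXA, had 1.11, 3.08 and 4.62 CPM in knockout libraries, against 30.6, 36.7 and 66.2 CPM in wild-type libraries of 260 h (log2 fold change -3.92 ± 0.49, edgeR adjusted p = 7.66e-05). Bax, a pore-forming death protein, and Mdm2, the ligase that degrades p53, had log2 fold changes of -1.10 ± 0.36 and -0.73 ± 0.24 (edgeR, adjusted p = 0.0398 and 0.0407). Both lost the call without any 1 of the knockout libraries or without wild-type library 3, and Mdm2 also without wild-type library 2. Of 17 immediate early and heat shock genes 4 fell and 0 rose, and 1, 2 and 2 fell without knockout library 1, 2 or 3. Jun, of the AP-1 factor, fell to 3.59, 6.05 and 14.6 CPM in knockout libraries, against 30.1, 21.2 and 28.5 CPM in wild-type libraries of 260 h (log2 fold change -1.71 ± 0.45, edgeR adjusted p = 0.0136), and lost the call without knockout library 1 or 2 (adjusted p = 0.0735 and 0.0700) and with spike-in scaling (adjusted p = 0.0720). The heat shock genes Hspa1a and Hspa1b, near-identical copies whose reads may be split between them, had log2 fold changes of -3.18 ± 0.82 and -3.82 ± 0.92 (edgeR, adjusted p = 0.0123 and 0.008). Hspa1a lost the call without knockout library 1 or 3 or wild-type library 2 (adjusted p 0.0507 to 0.0708). Hspa8, the constitutive heat shock chaperone, had 159, 200.2 and 206 CPM in knockout libraries and 887, 309 and 322 CPM in wild-type libraries of 260 h (log2 fold change -1.42 ± 0.42, edgeR adjusted p = 0.0246), and lost the call without wild-type library 1 or any 1 of the knockout libraries.

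Of the 13 Sertoli genes tested 0 were called. Cyp11a1, the first enzyme of steroid synthesis and a Leydig cell gene, had 1.11, 0.237 and 0.103 CPM in knockout libraries and 35.4, 15.4 and 0.618 CPM in wild-type libraries of 260 h (log2 fold change -5.10 ± 1.25, edgeR adjusted p = 0.00947). Lyz2, lysozyme of macrophages, had 0.495, 1.07 and 1.85 CPM in knockout libraries and 13.4, 17.4 and 0.265 CPM in wild-type libraries of 260 h (log2 fold change -3.14 ± 1.01, edgeR adjusted p = 0.0379). Both were high in wild-type libraries 1 and 2 and as low as the knockout in library 3, so the groups overlapped. With library 3 as the only wild-type library of 260 h, the log2 fold changes were -0.43 for Cyp11a1 and 2.00 for Lyz2, and neither passed (adjusted p = 0.920 and 0.428, edgeR). Lyz2 also lost the call over all kept cells (adjusted p = 0.0759), under limma-voom (0.710) and without any 1 of the libraries other than wild-type library 3 (0.0649 to 0.164). Cyp11a1 lost it under limma-voom (adjusted p = 0.240) and without knockout library 2 (0.0533).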

How the data were processed

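The deposited values were raw UMI counts per gene and cell barcode in 12 libraries of 96 barcodes, all sharing the same 96 well barcodes, with 55450 genes and 92 ERCC spike-ins, which were kept out of library sizes. Tools listed in the submitters' processing notes are featureCounts 1.6.4, STAR 2.5.3a and UMI-tools 1.0.0, with the mm10 build. No source used here gives their order, settings or use of strand. Classes and 5 clusters are labels in the cell table that the authors deposited (929 of 1152 barcodes kept). No source used here gives its filter. No doublet caller was run. Cluster and class came from the expression of the same cells.

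Counts were summed over the class cells of each library, filtered with filterByExpr, scaled by TMM and fitted with edgeR 4.0.16 (quasi-likelihood, robust, R 4.3.3) to 4 groups of 3 libraries, with Benjamini-Hochberg adjustment over 18692 genes. The common biological coefficient of variation was 0.447. Log2 fold changes are given ± SE, and CPM as mean ± SD (n = 3). On simulated data of this comparison (17851 genes), edgeR called 39 of 50 genes raised 4-fold, 30 of 50 lowered to 0.25-fold, 3 of 50 raised 2-fold and 0 of 50 lowered to 0.5-fold, and 2 unchanged genes. Exact permutation tests of shares were two-sided. Libraries of 1 group differed beyond sampling noise (chi-square over its degrees of freedom 8.80 or more), so none was counted as a duplicate. Alternatives were DESeq2 1.42.0 and its size factors, limma-voom (limma 3.58.1), spike-in scaling, no filter, the 6 libraries alone, all kept cells, cells thinned to 40000 UMIs, a replicate block and leaving out each library.

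The members and lists were chosen with earlier results of these data known. Named genes were 15 fixed genes, the 10 largest changes in each direction called both by class and over all kept cells with at least 20 CPM and no overlap, leaving out predicted genes, and up to 4 called members with the smallest p of each of 20 lists. Dnaic1 and Dnaic2 were matched as older symbols after the files were read. Promoters came from RefSeq (GRCm38.p6); 10525 of 18692 genes matched by symbol and strand within 500 bases. Some members with calls are not reported here.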

Additional observations from a re-analysis of the deposited data

How the results depend on the processing

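The count of 3775 called genes was 3544 to 4860 under DESeq2, its size factors, limma-voom, no filter, the 6 libraries alone, thinned cells and the replicate block (3544), 1864 with spike-in scaling, and 1969 to 3829 when 1 library was left out. With wild-type 260 h library 3 as the only wild-type 260 h library, an alternative chosen after seeing the data, it was 2671. Over all kept cells, 3176 calls became 1437 with spike-in scaling and 1448 to 3313 when 1 library was left out. Knockout against wild type at 360 h gave 2895 to 4058 calls when 1 library was left out, and wild type at 360 h against 260 h gave 4729 with library 3 alone.

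Median distances over genes of at least 20 CPM were 1.22 (knockout 360 h to wild type 260 h), 1.38 (knockout 360 h to wild type 360 h), 1.75 (wild type 360 h to 260 h), 0.522 within knockout 360 h and 0.742 within wild type 260 h. With thinned cells they were 1.53 for knockout 360 h to wild type 360 h, 1.83 for wild type 360 h to 260 h, 0.726 within knockout 360 h and 0.955 within wild type 260 h, and over all kept cells 1.06 within knockout 360 h. Leaving out 1 library gave 0.746 to 0.962 within knockout 360 h and 1.08 to 1.44 within wild type 260 h. The difference of knockout 360 h minus wild type 260 h in the X-linked share was -0.446 percentage points over all kept cells.

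Of 84 named genes that were called, 83 kept their direction in every alternative run and 55 also stayed past the threshold. The exception in direction was Lyz2 (2.00 with library 3 alone). With library 3 alone the calls of Sycp1, Nanos3, Prps1l1, Piwil2, Sgo1, Hist1h2ba, Jun, Hspa1a and Hspa1b were among those lost, and with spike-in scaling those of Incenp, Mybl1, Piwil2, Sgo1, Slc7a5, Terb2, Trim28 and Jun. Among named genes without a call, log2 fold changes of either sign were found for Hdac1 (-0.070 with spike-in scaling, -0.34 with library 3 alone, -0.14 to 0.40 when 1 library was left out), Sycp3 (0.032 over all kept cells, 0.26 with library 3 alone, -0.81 to 0.29), Hspa2 (0.093 over all kept cells, -0.29 to 0.025) and Piwil1 (-0.0028 with the 6 libraries alone, -0.059 with spike-in scaling, -0.083 with library 3 alone, -0.20 to 0.29). The differences in shares changed sign too: mitochondrial -0.604 to 0.0667 and ribosomal protein -0.0845 to 1.44 percentage points, and gene UMIs per spike-in UMI -1.79 to 4.16, when 1 library was left out, ribosomal protein -0.100 over all kept cells and median genes per cell -24.5 in thinned cells. The causes were not tested.

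Same-numbered libraries of the groups did not deviate together (correlations -0.0314, -0.0750 and -0.0353), so the numbers were not taken as pairs. The replicate block ended the calls of Efcab9, Spaca1, Bax, Mdm2 and Lyz2 and of no other named gene. Restricting knockout cells to cluster 4 changed nothing, since all were in it. Restricting knockout cells to cluster 5, or wild-type cells to cluster 2 or 3, was not run, for at least 1 library had no such cells. In simulated data, where 200 genes were changed, 3 of 50 genes raised 2-fold were called. The real fit called 3775 genes, which makes its adjusted threshold easier to pass. The simulated share therefore does not say how many 2-fold changes were missed in these data.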

Other observations

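Long noncoding genes were called higher more often than lower. Of 1136 tested lincRNA genes 183 were higher and 61 lower in knockout 360 h than in wild type 260 h, with a median log2 fold change of 0.61. Of 783 tested antisense genes 149 were higher and 23 lower (median 0.63), and of 830 processed pseudogenes 70 were higher and 16 lower (median 0.61). Over all genes tested 11.4% were higher and 8.84% lower, with a median of -0.01. Of 14095 protein-coding genes 1496 were higher and 1515 lower (median -0.12). Without the filter on low counts the median over all genes was 0.19. The noncoding classes were not matched to other genes by level. Whether low counts, the filter or unequal depth of the libraries gave their surplus of higher calls was not tested. Reads of antisense genes and of pseudogenes may belong to their partner or parent genes, and this was not tested. Between wild type at 360 h and at 260 h, 489 of the 1136 lincRNA genes were higher and 67 lower, beside 20.9% and 17.0% of all genes. Between knockout and wild type at 360 h 53 were higher and 339 lower, beside 10.4% and 14.7% of all genes.

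Of 10 tested Y-linked genes 0 were higher and 2 lower in knockout 360 h than in wild type 260 h, beside 11.4% and 8.84% of all genes. In wild type at 360 h 7 were lower than at 260 h, beside 17.0% of all genes.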
